A study of Mus musculus with 6 samples.

Results

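The semaphorin, plexin, Slit and netrin genes encode secreted and membrane-bound cues that steer growing axons and migrating cells, and the receptors that read them. Members were the 43 genes named on a fixed list, found on the array by gene symbol. They were represented by 102 of the 45101 probe sets, and they comprised 24 ligand genes and 19 receptor genes. Their transcripts were compared between 2 kinds of mouse embryo at embryonic day 11.5. Mest-KO embryos were T-Cre conditional Tbx1 knockouts, lacking the T-box gene Tbx1 where the Cre acts, which is in mesoderm, and control embryos were T-Cre conditional Tbx1 heterozygotes. T-Cre and at least 1 conditional Tbx1 allele were thus shared by all samples. Each of the 3 arrays of a genotype held RNA from the microdissected otic vesicle, the epithelial precursor of the inner ear, together with the mesenchyme that surrounds it, from the left and right ears of 3 pooled embryos.

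Class 3 semaphorins are secreted and act through neuropilins, which bind the ligand, and A-type plexins, which carry the signal into the cell. The other semaphorins here are anchored in the membrane and mostly bind plexins directly. Slits signal through Robo receptors, and netrins through Dcc, which mediates attraction, and Unc5 receptors, which mediate repulsion. In the developing ear these families are known for guiding the axons of the inner ear ganglion, and netrin 1 for the shaping of the semicircular canals in the mouse.

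Values are intensities on a linear scale, and intensities of different probe sets cannot be compared with each other. Correlations of log2 intensities between arrays lay between 0.987 and 0.993. Tbx1 read 520.5, 578 and 409.9 in Mest-KO 1, 2 and 3, against 525, 567 and 447 in control 1, 2 and 3. The groups overlapped (-0.03 ± 0.14; limma, adjusted p = 0.967), and whether its probe set reads the deleted part is not given in the sources used here, so it does not check the labels. Of the otic epithelium and periotic mesenchyme markers measured, 9 and 8 genes, 0 were at background, and Oc90, an otic vesicle marker, read 3050 to 3782 in Mest-KO and 2915 to 3378 in control. The otic markers read higher in Mest-KO for 5 genes and lower for 4, with Sox10 higher and Otx1 lower without overlap. The periotic markers read lower for 6 of 8 genes. Their mean log2 deviation was -0.21, -0.04 and -0.09 in Mest-KO, against 0.17, 0.12 and 0.05 in control, without overlap. A list of 13 tested markers of the neural tube at hindbrain level, tissue next to the ear, set the arrays apart. Its mean log2 deviation was -0.78, -0.22 and -0.93 in Mest-KO 1, 2 and 3, against 1.09, -0.27 and 1.11 in control 1, 2 and 3, so control 1 and control 3 stood above the other 4 arrays. Because the tissue was measured in bulk, fewer cells of a type and less RNA per cell cannot be told apart.

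None of the 43 guidance genes differed between the genotypes at an adjusted p under 0.05 (limma, 0 of 43 members, where 0.148% of the 14170 genes tested passed, 0.0847% higher and 0.0635% lower). The smallest adjusted p among them was 0.181, for Sema3c. At an unadjusted p under 0.05 there were 6 members (14.0%), where 8.97% of all genes reached this level, 5.73% higher and 3.24% lower. Of these 6, Plxna3 and Sema6d were higher in Mest-KO and Sema3c, Sema5b, Dcc and Robo3 were lower. The arrays of the 2 genotypes did not overlap for 6 members (14.0%), where 14.5% of all genes showed no overlap, 9.32% higher and 5.22% lower, so the members' share lay near the background. All 43 passed the filter on dim genes. With intervals of 95% around the log2 difference, 32 of the 43 lay within a 1.5-fold change in either direction. The median log2 difference was 0.04 over all members and 0.01 over all genes tested.

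**Figure D1:**
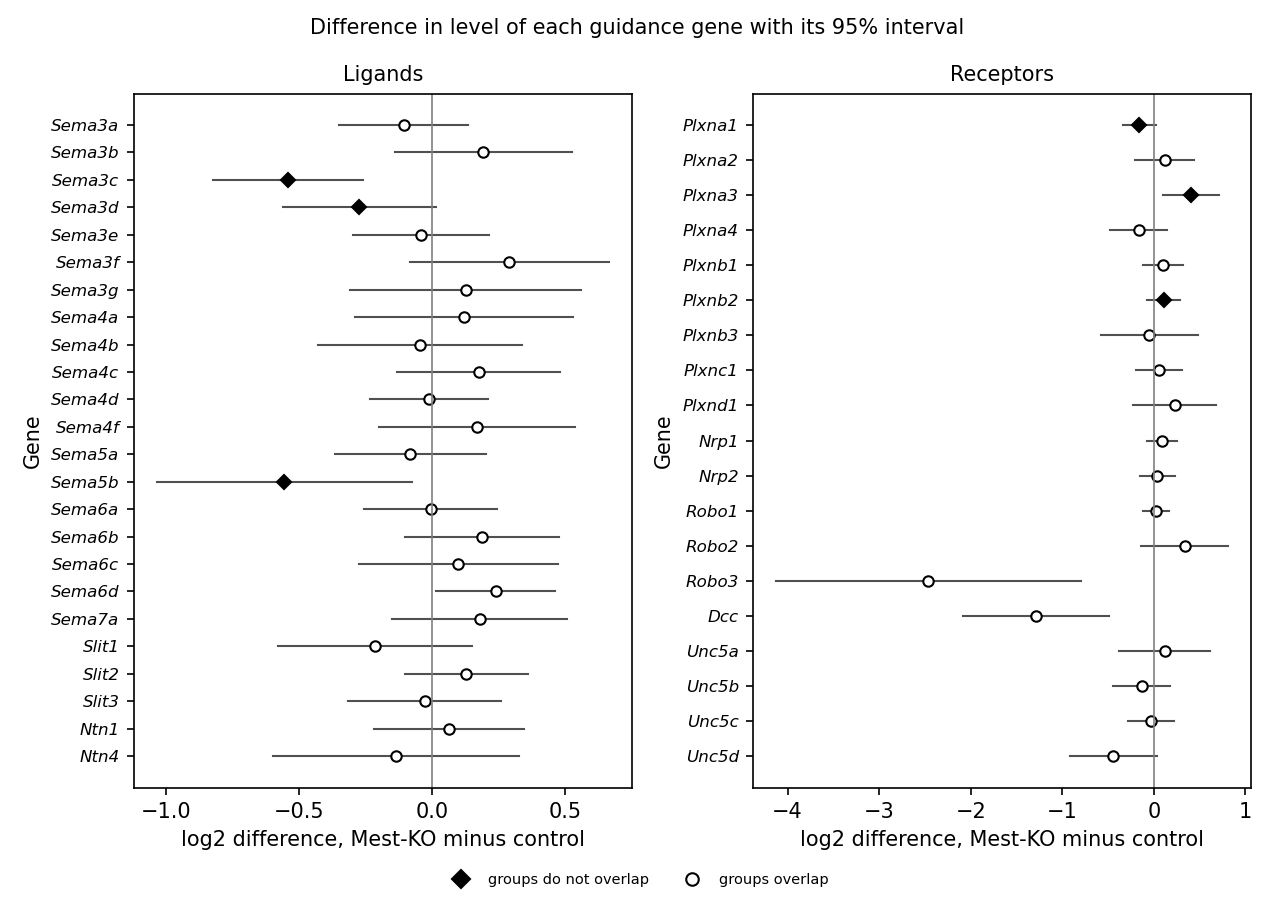
Log2 difference in intensity between Mest-KO and control (x axis) for the 24 ligand genes (left) and the 19 receptor genes (right), with different x axes. Bars are 95% intervals of the limma fit over 3 arrays a group, and filled diamonds mark the 6 genes whose groups do not overlap. Most intervals include 0, and Dcc at -1.29 and Robo3 at -2.46 have the widest intervals of the receptors.

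Among the ligands, 12 read higher and 12 lower in Mest-KO, with a median log2 difference of 0.03. The smallest p was that of Sema3c, a secreted semaphorin known for drawing cardiac neural crest cells into the outflow tract. Its intensity was 642, 679 and 551 in Mest-KO 1, 2 and 3, against 1014, 772 and 970.0 in control 1, 2 and 3. Every Mest-KO array was below every control array. The log2 difference was -0.54 ± 0.13 (SE, 95% interval from -0.82 to -0.26), which is 0.687-fold, and it did not pass over all genes (limma, unadjusted p = 0.00141, adjusted p = 0.181; exact permutation p = 0.1, the smallest that 3 arrays against 3 allow). A second, dimmer probe set of Sema3c read 33.7, 45.6 and 47.6 in Mest-KO, against 77.5, 61.4 and 69.5 in control. The means of the first were 624 ± 65.9 in Mest-KO and 919 ± 129 in control (SD, n = 3 each). The second differed by -0.56 ± 0.17, in the same direction and again without overlap. With each array centred on its own median, Sema3c passed (-0.61 ± 0.13, adjusted p = 0.0438), and without control 2 it passed too (-0.66 ± 0.12, limma, adjusted p = 0.046, where 0.43% of all genes passed toward lower levels). The neural tube markers moved with this gene, since control 1 and control 3 had its highest values. Without those 2 arrays its difference was -0.31 ± 0.18, and -0.19 ± 0.16 (limma, adjusted p = 0.902) when the neural tube mean entered the fit. Leaving out the 2 arrays with the gene's highest values shrinks the difference by itself. The list also read lower in Mest-KO for 12 of 13 tested genes. Neither setting can therefore tell neural tube tissue apart from genotype. Pharyngeal endoderm markers also read lower in Mest-KO, for 6 of 7 tested genes and 4 of them at an unadjusted p under 0.05. Their summed intensity was 1951, 2202 and 2057 in Mest-KO, against 3518, 2786 and 3243 in control, without overlap and with 1 of 8 listed genes at background on every array. Foxa2 and Shh of this list were also on a floor plate list, where 2 of 3 tested genes read lower and 1 higher. Periotic mesenchyme markers read lower for 6 of 8 genes and higher for 2, with 3 lower at an unadjusted p under 0.05 (limma). The part of these tissues in the Sema3c difference was not tested.

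2 further ligands had no overlap between the genotypes, and both read lower in Mest-KO. Sema3d, another secreted class 3 semaphorin, read 362, 399 and 381 in Mest-KO, against 427, 420.0 and 555 in control. All 3 control arrays were above the highest Mest-KO array, by a small margin for control 2. The log2 difference was -0.27 ± 0.13 (limma, unadjusted p = 0.06, adjusted p = 0.573), and a second probe set differed by -0.30. Without control 3, its highest array, the difference was -0.15 ± 0.13, without control 1 and control 3 it was -0.14 ± 0.19, and -0.08 ± 0.21 when the neural tube mean entered the fit. Sema5b, a transmembrane semaphorin with thrombospondin repeats, read 163, 176 and 187 in Mest-KO, against 395, 188 and 249 in control. Control 2 read almost the same as the highest Mest-KO array, and control 1 and control 3 were above all others, as for the neural tube list. The difference was -0.56 ± 0.22 (limma, unadjusted p = 0.027, adjusted p = 0.47), -0.28 ± 0.17 without control 1, and -0.09 ± 0.22 without control 1 and control 3. It was -0.04 ± 0.30 when the neural tube mean entered the fit. A second probe set of Sema5b differed by -0.34 ± 0.20, with overlap. Groups without overlap and lower levels were found for 3 of 24 ligands (12.5%), where 5.22% of all genes were of this kind. Groups without overlap and higher levels were found for 0 of 24 ligands, where 9.32% of all genes were of this kind. In both directions together the share was 12.5% of the ligands and 14.5% of all genes, so it lay near the background.

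The promoters of these 3 ligand genes are shown with that of Plxna3, the receptor gene described below, because these are the 4 largest differences among the members whose groups did not overlap. Sequences are 250 bases before to 50 after the gene start, from RefSeq (GRCm38.p6), 5′ to 3′ on the gene's strand, and all 4 genes lie on the plus strand. Capitals mark AGGTGT, the core of a single T-box factor site, or its reverse complement ACACCT.
Sema3c, chr5:17574566-17574865: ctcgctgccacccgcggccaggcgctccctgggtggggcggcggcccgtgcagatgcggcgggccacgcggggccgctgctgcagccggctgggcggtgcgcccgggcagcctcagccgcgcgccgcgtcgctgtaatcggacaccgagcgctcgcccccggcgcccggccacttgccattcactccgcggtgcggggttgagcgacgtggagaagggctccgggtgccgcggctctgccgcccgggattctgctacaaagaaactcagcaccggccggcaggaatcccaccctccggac
Sema3d, chr5:12382916-12383215: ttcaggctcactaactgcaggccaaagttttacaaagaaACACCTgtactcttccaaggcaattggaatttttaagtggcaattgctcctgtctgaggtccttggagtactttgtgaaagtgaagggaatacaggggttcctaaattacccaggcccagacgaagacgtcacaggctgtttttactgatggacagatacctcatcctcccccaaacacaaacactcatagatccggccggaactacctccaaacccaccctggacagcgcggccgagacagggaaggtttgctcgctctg
Sema5b, chr16:35541112-35541411: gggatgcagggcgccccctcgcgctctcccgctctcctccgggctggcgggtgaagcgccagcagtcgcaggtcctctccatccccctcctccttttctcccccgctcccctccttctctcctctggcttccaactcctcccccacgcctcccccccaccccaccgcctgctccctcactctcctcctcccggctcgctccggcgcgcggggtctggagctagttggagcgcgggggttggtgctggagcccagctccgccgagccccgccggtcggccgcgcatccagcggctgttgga
Plxna3, chrX:74328816-74329115: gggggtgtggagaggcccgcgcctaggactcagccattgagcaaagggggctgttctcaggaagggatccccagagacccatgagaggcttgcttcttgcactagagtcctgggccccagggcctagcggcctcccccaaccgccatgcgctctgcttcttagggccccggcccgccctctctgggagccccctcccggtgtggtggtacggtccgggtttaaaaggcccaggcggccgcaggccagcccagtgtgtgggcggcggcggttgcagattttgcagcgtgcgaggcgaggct
Only the Sema3d window, of these 4, held the letters, at 1 place on the minus strand. Over all 34 member genes with a window in the table, 7 of 47 windows (14.9%) held them, against 13.7% of all 32851 windows. A match is a description of the letters and not a binding site. The windows of Sema3c and Sema5b were rich in G and C, at 75.7% and 73.0%, where the median of all windows was 52.7%, while Sema3d had 49.7%.

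**Figure D2:**
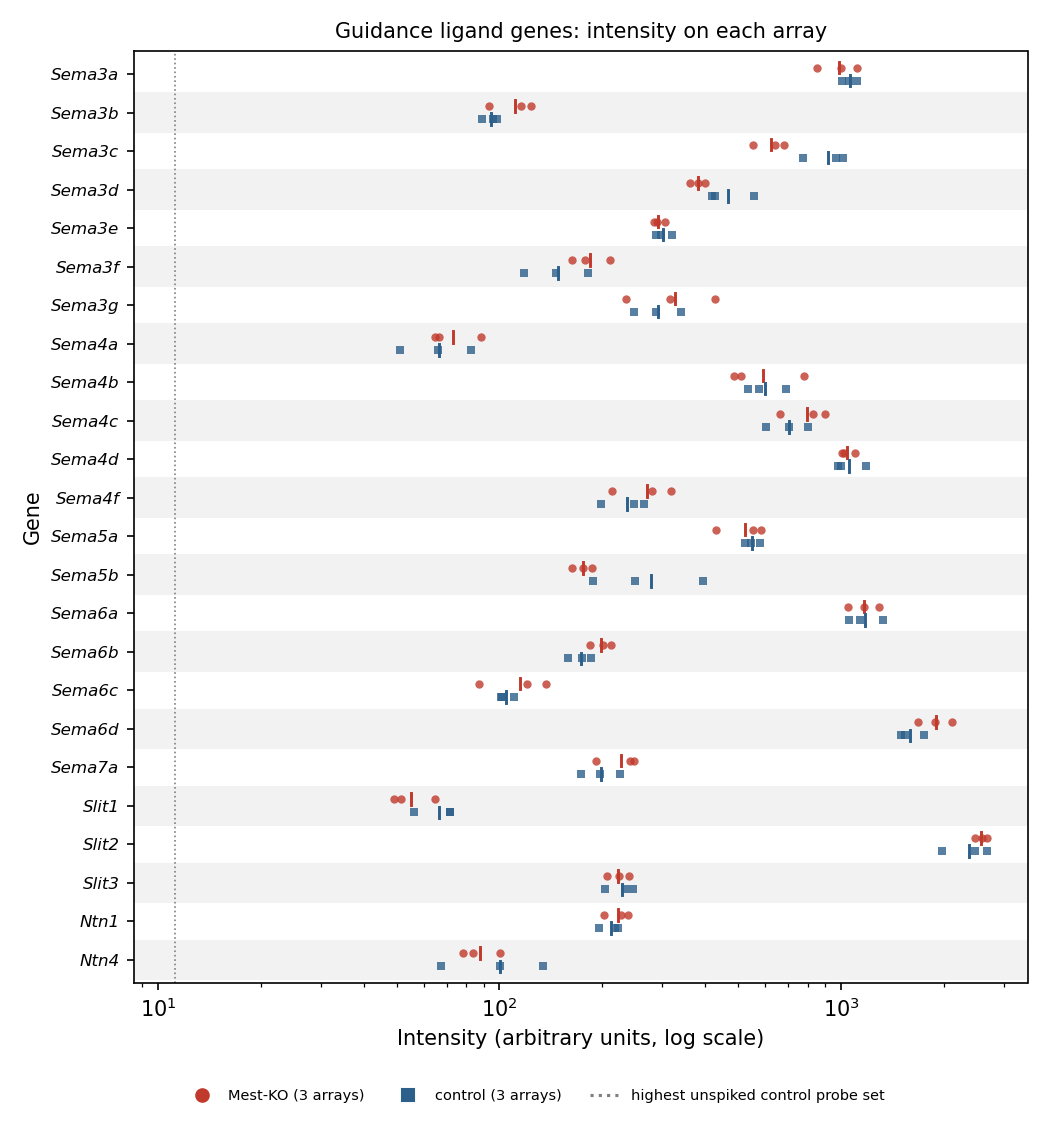
Intensity on each array (x axis, arbitrary units, log scale) of the 24 guidance ligand genes, for 3 Mest-KO arrays (circles) above 3 control arrays (squares), with vertical ticks at the group means and a dotted line at the highest unspiked control probe set (11.2). Sema3c, Sema3d and Sema5b are the ligands whose groups do not overlap.

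For the remaining class 3 semaphorins the genotypes overlapped. Sema3a, a repellent of sensory axons that is known to act on inner ear neurons, read 999, 1116 and 853 in Mest-KO, against 1117, 1009 and 1058 in control. The ranges overlapped, and the interval of the difference ran from -0.35 to 0.14. Sema3f, a ligand of neuropilin 2, read 178, 210.4 and 164 in Mest-KO, against 146, 118 and 182 in control (0.29 ± 0.17; limma, adjusted p = 0.65). Sema3b (0.19 ± 0.15), Sema3g (0.13 ± 0.20) and Sema3e (-0.04 ± 0.12), which signals through plexin D1, also overlapped. For Sema3e the choice of probe set mattered: 2 probe sets of nearly the same intensity differed by -0.04 ± 0.12 and 0.31 ± 0.15.

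Among the membrane-bound semaphorins, Sema6d had an unadjusted p under 0.05. Sema6d, a ligand of plexin A1 known from heart development, read 1881, 2118 and 1679.9 in Mest-KO, against 1502, 1544 and 1747 in control. Control 3 was above Mest-KO 3, so the groups overlapped by this pair. The difference was 0.24 ± 0.10 (limma, unadjusted p = 0.0391, adjusted p = 0.524). A second probe set of Sema6d differed by 0.40 ± 0.18 without overlap, reading 53.3, 58.7 and 76.7 in Mest-KO, against 50.9, 35.2 and 44.5 in control. Another, below the filter, was lower without overlap (-0.49), the mean of all Sema6d probe sets differed by 0.10 ± 0.10, and without Mest-KO 2 the difference was 0.16 ± 0.11. The 5 class 4 genes, whose products bind B-type plexins in several cases, lay between -0.05 and 0.17. Sema4d read 1006, 1021 and 1102 in Mest-KO, against 999.7, 1181 and 982 in control, with overlap (-0.01 ± 0.10; limma, adjusted p = 0.985). Sema5a read 554, 584 and 430.4 in Mest-KO, against 547, 524 and 579 in control, with overlap (-0.08 ± 0.13; limma, adjusted p = 0.895). Sema7a, which is tethered by a lipid anchor, read 247, 241 and 192 in Mest-KO, against 196, 173 and 226 in control. Control 3 lay above Mest-KO 3, and the difference was 0.18 ± 0.15 (limma, adjusted p = 0.781). Sema6a, Sema6b and Sema6c gave -0.01, 0.19 and 0.10.

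The Slit and netrin genes showed 0 members at an unadjusted p under 0.05 and 0 without overlap (limma; 0 of 5 at an adjusted p under 0.05). Slit2, a repellent that also acts on migrating cells, read 2586, 2462 and 2675 in Mest-KO, against 2464, 2671 and 1978 in control. Control 3 was the lowest array and the others lay close together (0.13 ± 0.11, 95% interval from -0.10 to 0.36). Slit1 and Slit3 differed by -0.22 ± 0.17 and -0.03 ± 0.13. Ntn1, which encodes netrin 1, made in the otic epithelium and in the floor plate of the neural tube, read 203, 238 and 227 in Mest-KO, against 195, 217 and 223 in control. The ranges overlapped, and the interval of the difference, from -0.22 to 0.35, excludes a 1.5-fold change. Unlike Dcc and Robo3, described below, Ntn1 in control 1 and control 3 did not stand above the other arrays. The part of neural tube tissue in the Ntn1 level was not tested. Ntn4, a basement membrane netrin, differed by -0.14 ± 0.21.

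Among the receptors, 11 read higher and 8 lower in Mest-KO, with a median log2 difference of 0.04. Plxna3 had the largest positive difference of all members. Its product is a signalling partner of the neuropilins for class 3 semaphorins. It read 425, 339 and 355 in Mest-KO, against 265, 249 and 321 in control. All Mest-KO arrays were above all control arrays. The difference was 0.40 ± 0.14 (95% interval from 0.10 to 0.71), which is 1.32-fold (limma, unadjusted p = 0.0146, adjusted p = 0.398). A second probe set gave 0.30 ± 0.22 with overlap. Plxna3 is X-linked, and the pools differed in sex makeup, with a summed intensity of 3 Y-linked genes of 2609, 2374 and 2289 in Mest-KO, against 1378, 2577 and 1395 in control. When the Y-linked mean entered the fit, the difference was 0.46 ± 0.17, and without control 1 and control 3 it was 0.55 ± 0.21. The Y-linked list itself read higher in Mest-KO for 3 of 3 tested genes. Leaving out control 1 and control 3 leaves control 2 alone, which read lowest of all arrays for Plxna3. Neither fit can therefore tell sex makeup apart from genotype. The part of neural tube tissue in the Plxna3 difference was not tested. Cranial ganglion neuron markers read higher in Mest-KO, as Plxna3 did, for 11 of 11 tested genes. Their mean log2 deviation was 0.22, 0.15 and 0.14 in Mest-KO 1, 2 and 3, against -0.20, -0.11 and -0.19 in control 1, 2 and 3. The part of these cells in the Plxna3 difference was not tested.

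The other plexins differed little. Plxna1 read 1250.4, 1196 and 1155 in Mest-KO, against 1348, 1354 and 1319 in control, without overlap (-0.16 ± 0.08; limma, adjusted p = 0.612), a second probe set near background gave -0.64 ± 0.30, and the mean of both -0.40 ± 0.16. Plxnb2, a receptor of class 4 semaphorins, read 1844, 1674 and 1646 in Mest-KO, against 1586, 1568 and 1632 in control, also without overlap (0.11 ± 0.08; limma, adjusted p = 0.751), and differed by 0.06 ± 0.09 without Mest-KO 1. The intervals of these genes' main probe sets lay within 1.5-fold. Plxnd1, the Sema3e receptor of blood vessels, overlapped between groups (0.23 ± 0.20), while 7 of 7 blood endothelium markers read higher in Mest-KO, with summed intensities of 3570 to 3944 in Mest-KO and 3168 to 3333 in control. Of these markers only Tek (0.29 ± 0.08) and Tie1 (0.54 ± 0.14) had an unadjusted p under 0.05 (limma). Pecam1 (0.03 ± 0.13), Cldn5 (0.04 ± 0.14) and Esam (0.00 ± 0.13) were nearly level. The part of these markers in the Plxnd1 difference was not tested. The groups also overlapped for Plxna2 (0.12 ± 0.15), Plxna4 (-0.16 ± 0.14), Plxnb1 (0.10 ± 0.10) and Plxnc1 (0.06 ± 0.11). Plxnb3 was dim, at 14.2 to 23.7 in Mest-KO and 12.4 to 36.5 in control.

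By their main probe sets, the neuropilins and the Slit receptor Robo1 were level between the genotypes within narrow intervals. Nrp1, the coreceptor of Sema3a and of a vascular growth factor, read 3152, 3308 and 3436 in Mest-KO, against 3178, 3278 and 2853 in control (0.09 ± 0.08, interval from -0.08 to 0.26). Nrp2, the coreceptor preferred by Sema3f, read 2679, 3026 and 2528 in Mest-KO, against 2527, 2828 and 2639 in control (0.04 ± 0.08, interval from -0.15 to 0.23). For these probe sets of Nrp1 and Nrp2 the groups overlapped and each interval excludes a 1.5-fold change. Another Nrp2 probe set differed by -0.31 ± 0.15, with overlap. A dim probe set of each of the 2 genes was higher in Mest-KO without overlap, as given below. Robo1 read 3865, 3974 and 4223 in Mest-KO, against 3837, 3945 and 4050.4 in control (0.03 ± 0.06), with overlap and an interval from -0.12 to 0.17. Robo2 was dim and differed by 0.34 ± 0.22, with overlap. Among the netrin repulsion receptors, Unc5c read 2050.2, 1718 and 1465 in Mest-KO, against 1739, 1836 and 1722 in control, with overlap (-0.03 ± 0.11; limma, adjusted p = 0.964). A second Unc5c probe set read 547, 542 and 520.1 in Mest-KO, against 620.3, 671 and 595 in control, without overlap (-0.22 ± 0.10). Unc5b differed by -0.13 ± 0.14, and the dim Unc5a and Unc5d by 0.12 ± 0.23 and -0.44 ± 0.22.

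**Figure D3:**
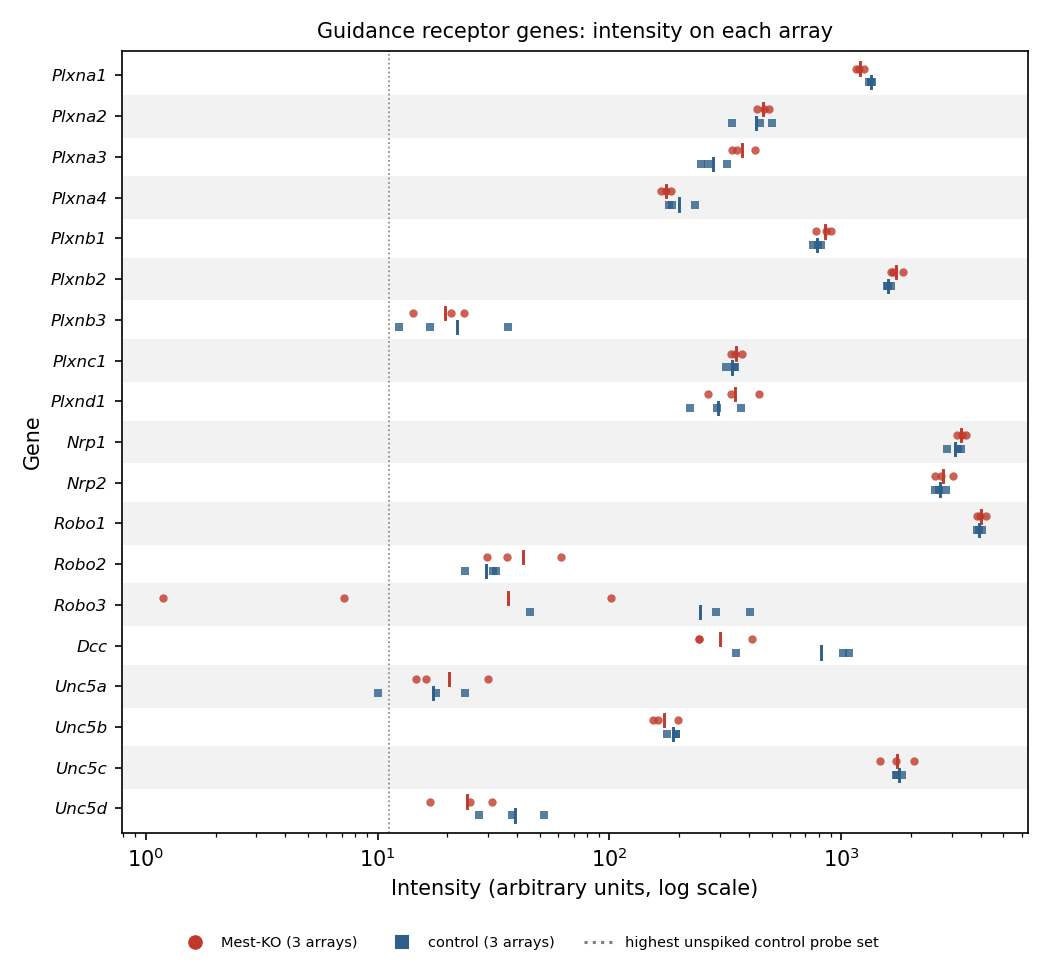
Intensity on each array (x axis, arbitrary units, log scale) of the 19 guidance receptor genes, for 3 Mest-KO arrays (circles) above 3 control arrays (squares), with vertical ticks at the group means and a dotted line at the highest unspiked control probe set (11.2). Robo3 and Dcc spread widely within each genotype, and Mest-KO 1 and 3 read 7.13 and 1.19 for Robo3.

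Dcc and Robo3, the receptors of neurons whose axons cross the midline of hindbrain and spinal cord, had the largest differences and the largest spread within groups. Dcc read 243, 412 and 243 in Mest-KO 1, 2 and 3, against 1084, 351 and 1020.4 in control 1, 2 and 3. Control 2 lay below Mest-KO 2, so the groups overlapped, and control 1 and control 3 were far above the rest. The difference was -1.29 ± 0.36 (limma, unadjusted p = 0.0045, adjusted p = 0.257; exact permutation p = 0.2). A second probe set differed by -1.20 ± 0.28 without overlap. Robo3 read 7.13, 102 and 1.19 in Mest-KO, against 287, 45.5 and 405 in control. Mest-KO 1 and Mest-KO 3 were below the highest unspiked bacterial control (11.2), so the size of the difference, -2.46 ± 0.75 (adjusted p = 0.305), depended on background, and it was -3.31 with a pseudocount of 4 and -1.52 with 64. The second Robo3 probe set, near background, differed by -0.15 ± 0.21.

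The level of Robo3 ran through the arrays in the order of the neural tube list, from control 3, control 1, Mest-KO 2 and control 2 down to Mest-KO 1 and Mest-KO 3, whose 2 values lay below the unspiked controls and have no order between them. The order of Dcc differed from this only within the top pair and within the bottom pair. In that list 12 of 13 tested genes read lower in Mest-KO, 2 passed over all genes, and 8 reached an unadjusted p under 0.05. Its summed intensity over 17 genes was 1210 to 1986 in Mest-KO and 1622 to 3870 in control, and 2 of the 17, the neural tube genes Olig2 and Dbx2, were at or below the unspiked controls on every array. When the list mean entered the fit, Dcc differed by 0.15 ± 0.18 and Robo3 by 0.42 ± 0.49, both turned in sign from the values above (limma, adjusted p = 0.945 and 0.941). Because the list itself differed between the genotypes, that fit cannot tell neural tube tissue apart from genotype. Without control 1 and control 3 the differences were -0.26 ± 0.28 for Dcc and -0.77 ± 0.79 for Robo3. Without control 2 the reverse happened, and Dcc (-1.80 ± 0.20, adjusted p = 0.00352), Robo3 (-3.31 ± 0.62, adjusted p = 0.042) and Sema3c passed.

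**Figure D4:**
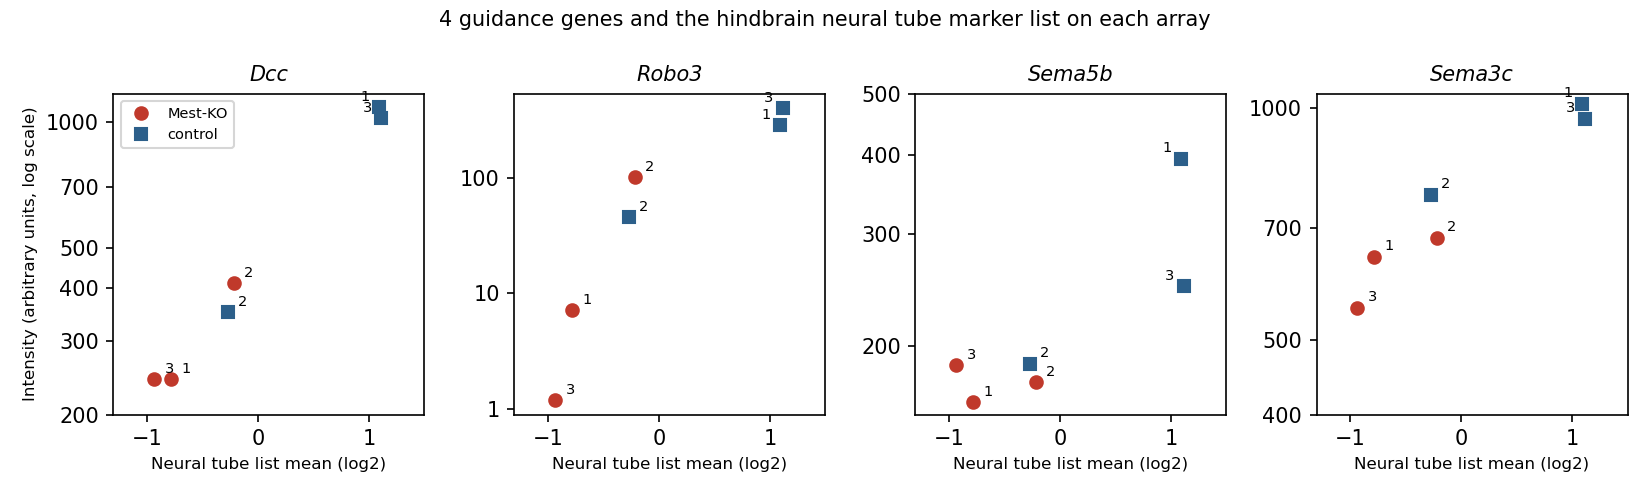
Intensity (y axes, arbitrary units, log scale, a separate range for each gene) of Dcc, Robo3, Sema5b and Sema3c on each array against the mean log2 deviation of the hindbrain neural tube marker list (x axes), for Mest-KO (circles) and control (squares), with the replicate number beside each point. Control 1 and control 3, at 1.09 and 1.11 on the x axis, hold the highest values of all 4 genes, and control 2 lies among the Mest-KO arrays for Dcc, Robo3 and, within a small margin, Sema5b.

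In the fit that held the neural tube mean, 6 members had an unadjusted p under 0.05 and all 6 were higher in Mest-KO (14.0%, where 6.11% of all genes reached this level in that fit, 4.17% higher and 1.94% lower). They were Plxna3 (0.52 ± 0.23), Sema6d (0.39 ± 0.16), Sema3f (0.72 ± 0.23), Sema3g (0.61 ± 0.26), Sema4c (0.47 ± 0.20) and Plxnd1 (0.66 ± 0.29). None of the 6 passed over all genes in limma, with adjusted p from 0.708 to 0.807. Without control 1 and control 3, where 5.46% of all genes reached this level, 3.83% higher and 1.62% lower, Plxna3 (0.55 ± 0.21), Sema3f (0.57 ± 0.23) and Plxnd1 (0.58 ± 0.26) remained under an unadjusted p of 0.05. In both fits 0 members were lower at that level (limma; 0 at an adjusted p under 0.05). The fit without 2 control arrays leaves a lone control array, which is assumed to vary like the Mest-KO arrays. This array, control 2, read lowest of all arrays for Plxna3, Sema3f and Plxnd1. Control 1 and control 3, left out there, read highest for Sema3c, Sema5b, Dcc and Robo3, which shrinks those differences by itself. The neural tube list itself read lower in Mest-KO for 12 of 13 tested genes. The directions in these 2 fits therefore cannot tell neural tube tissue apart from genotype. Sex makeup also set control 1 and control 3 apart. The mean log2 deviation of the Y-linked list was -0.49, 0.43 and -0.43 in control 1, 2 and 3. In Mest-KO 1, 2 and 3 it was 0.26, 0.23 and 0.01. When the Y-linked mean entered the fit, Dcc differed by -0.79 ± 0.25 and Robo3 by -1.73 ± 0.71. Sema3c then differed by -0.44 ± 0.14 and Sema5b by -0.30 ± 0.19. Neural tube tissue, sex makeup and genotype therefore cannot be told apart for these genes.

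Several members carried probe sets that differed from one another. Of 28 member genes with more than 1 probe set above the filter, all probe sets had the same sign for 20. Fitted on their own, 12 of 92 member probe sets had an unadjusted p under 0.05, 6 higher and 6 lower, where 9.16% of all probe sets reached this level, 5.9% higher and 3.26% lower. Among genes whose main probe set overlapped with an unadjusted p of 0.05 or more, 5 had another probe set that was higher in Mest-KO without overlap, and Sema3b and Unc5c had one that was lower without overlap. The 5 were Sema4f (0.29 ± 0.19), Plxna2 (0.13 ± 0.13), Nrp1, Nrp2 and Slit2, of which the last 3 had an unadjusted p under 0.05. Over all genes, by their main probe sets, 14.5% showed no overlap, 9.32% higher and 5.22% lower. The share without overlap over all probe sets was not counted, so these counts of members have no background of their own kind. A Nrp1 probe set read 113, 76.8 and 53.3 in Mest-KO, against 48.1, 35.5 and 39.5 in control (0.73 ± 0.22). A Nrp2 probe set read 81.8, 45.9 and 49.5 in Mest-KO, against 35.8, 15.9 and 33.3 in control (0.76 ± 0.24). A Slit2 probe set read 458, 343 and 385 in Mest-KO, against 316, 194 and 282 in control (0.57 ± 0.18). For Nrp1, Nrp2 and Slit2 the highest array was Mest-KO 1 and the lowest was control 2. The median intensity over all probe sets was also highest in Mest-KO 1, at 70.6, and lowest in control 2, at 59.95. The part of this array-wide level in the differences of the 3 probe sets was not tested. None of these 3 probe sets passed in limma (adjusted p from 0.321 to 0.331), and the part of the transcript each probe set reads is not given in the sources used here.

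**Figure D5:**
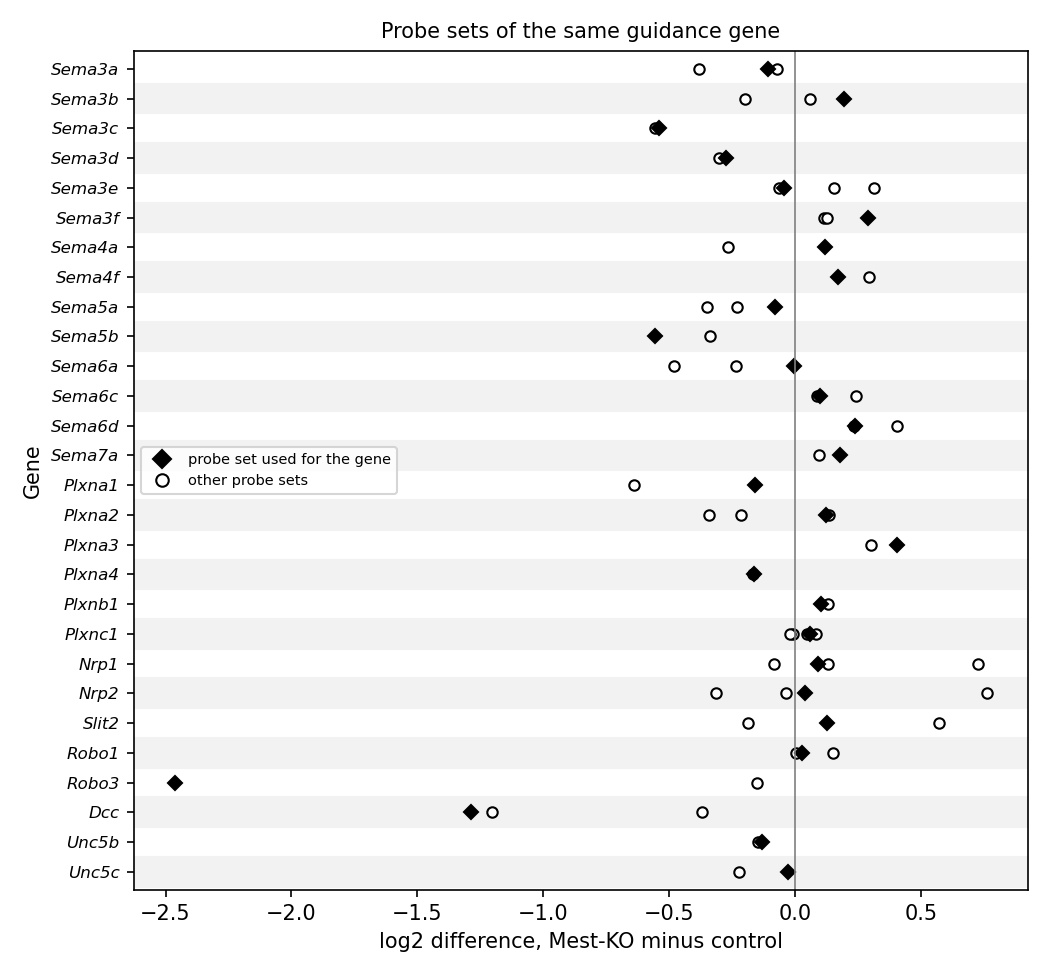
Log2 difference between Mest-KO and control (x axis) of each probe set above the filter, for the 28 guidance genes (y axis) with more than 1 such probe set. Diamonds are the probe set used for the gene and circles the others, which agree in sign for 20 genes and lie apart for Nrp1, Nrp2, Slit2 and Robo3.

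The other genes of these pathways were taken from a list of 53, of which 50 were tested. None passed over all genes (limma, 0 of 50 at an adjusted p under 0.05), and at an unadjusted p under 0.05 there were 8 higher and 2 lower (20.0%, where 8.97% of all genes reached this level). The ligand genes among these included Flrt1, encoding a membrane protein that binds Unc5 receptors in other settings, which read 221, 204 and 177 in Mest-KO, against 129, 105 and 94.7 in control (0.79 ± 0.15; adjusted p = 0.106). Ntn5, a netrin relative, differed by 0.72 ± 0.19 and Sema4g by 0.52 ± 0.16, both without overlap. L1cam, an axonal adhesion molecule that partners neuropilin 1, read 1427, 1223 and 1036 in Mest-KO, against 822, 887 and 849.5 in control (0.51 ± 0.12; adjusted p = 0.179). Ntng1, encoding netrin G1, was 1 of the 2 on the lower side (-0.30 ± 0.13). Cranial ganglion neuron markers moved alongside the genes that read higher, with 11 of 11 tested genes higher in Mest-KO, 8 of them at an unadjusted p under 0.05, and summed intensities of 33554 to 34972 in Mest-KO and 27450 to 29890 in control. Their part in these differences was not tested. The 31 intracellular effectors tested, which link the receptors to the cytoskeleton, had a median log2 difference of -0.02. Neural crest and Schwann precursor markers read higher too, for 5 of 5 genes, at 9490 to 10004 summed in Mest-KO and 8337 to 8648 in control.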

How the data were processed

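The authors deposited linear intensities of 45101 probe sets on Affymetrix Mouse Genome arrays. The submitters' processing notes name Expression Console 1.1. How probes were summarized or corrected for background is not given in the sources used here. All 6 arrays had a mean of 500.002 once the lowest and highest 2% were set aside, which points to scaling, so a shift common to most genes is hidden. Background was judged from 27 unspiked bacterial control probe sets, with a highest intensity of 11.2. For arrays, their number limits the precision, and the labels call the 3 pools of a genotype biological replicates.

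Of the probe sets, 34945 carried 1 gene symbol, 932 several and 9160 none, besides 64 controls. Symbols were checked through Entrez IDs against RefSeq (GRCm38.p6), which changed 0. Intensities were taken as log2(value + 16), which understates changes of dim genes. Each gene took its probe set of highest mean log2 value, and 14170 of 18193 genes with a mean above the 30th percentile were kept. Genotype was fitted in limma 3.58.1 (R 4.3.3) with eBayes and trend, two-sided, with Benjamini-Hochberg adjustment over all genes at 0.05. Errors of log2 differences are standard errors, with 3 arrays a group. Exact permutation tests of 3 against 3 cannot go below 0.1. The fit was tested on simulated data.

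Members given array by array were those with an unadjusted p under 0.05, those without overlap between groups, and, in each family, the member whose probe set had the highest intensity. Other members and probe sets are given by choice, after their values were seen. Of the other pathway genes, up to 4 in each direction were eligible. The result of 1 such gene is not reported here. The members and lists were chosen with earlier results of these data known. Alternatives were quantile normalization, median centring, pseudocounts of 4 and 64, 2 other filters, the mean of all probe sets, each probe set alone, eBayes without trend, array weights, a replicate block, leaving out arrays, and the neural tube or Y-linked list as a covariate. Genes on several-gene or unlisted probe sets were not analysed here.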

Additional observations from a re-analysis of the deposited data

How the results depend on the processing

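Over 19 alternatives the count of members past the adjusted threshold stayed at 0, except with arrays centred on their medians (1, Sema3c, where 0.395% of all genes passed toward lower levels) and without control 2 (3; leaving out single arrays gave 0 to 3). The count at an unadjusted p under 0.05 was 6, ran from 4 to 8 when single arrays were left out, and was 3 without control 1 and control 3 together. The ligand median moved by less than the spread between replicates in all 19. The receptor median, 0.04, was -0.026 with centred arrays, which shifts the median of all genes from 0.01 to -0.05, and ran from -0.037 to 0.063 when single arrays were left out. The signs of Dcc (0.15) and Robo3 (0.42) turned when the neural tube mean entered the fit, and among Plxna1, Plxna3, Plxnb2, Sema3c, Sema3d, Sema5b and Sema6d no sign turned in any of the 19. Over all genes 21 passed, and 1 to 82 over the alternatives. The replicate numbers of the labels share only a number: deviations of same-numbered arrays correlated at -0.03, -0.11 and -0.15, and with the replicate block 0 members passed and 6 had an unadjusted p under 0.05, while 9 of all genes passed. Groups of 3 arrays are too small to look for outlying arrays.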
